A study of Mus musculus with 38 samples.

Results

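Gene expression in the striatum was compared between mice that differed by 1 X chromosome, 9 XXY males and 11 XY males. The animals were taken by the sample codes, which begin XXYSry or XYSry, and they made up 20 of the 37 animals with a signal column in a series of 38 mice. The XXY males carried 2 X chromosomes and a Y, and the XY males carried 1 X and a Y. All were MF1 mice aged 152 days, and total RNA of the dissected striatum was hybridised to bead arrays, each animal giving 1 column of bead signals. The codes of both groups name Sry, the testis-determining gene, and the labels do not say where in the genome it lies. The labels call the animals biological replicates. The remaining animals of the series, 8 XX males and 9 XX females, entered the normalization, the probe filter and the model, where they shared the estimates of the spread and of the batch and letter terms. XY male replicate 3 had no signal column in the table. It enters only the alternative fit on the log2 values that the authors deposited.

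In mammalian cells with more than 1 X chromosome, all but 1 of the X chromosomes are silenced by the noncoding RNA Xist, which coats the chromosome it is made from. A small set of X-linked genes escapes this silencing and is read from the inactive chromosome too, and several of these genes act on other genes, as translation factors, RNA helicases or histone demethylases. The karyotype XXY is that of Klinefelter syndrome in men. The striatum is built mainly of GABAergic projection neurons of the direct pathway, which carry the dopamine receptor Drd1, and of the indirect pathway, which carry Drd2, with cholinergic and GABAergic interneurons among them. The question addressed here is how far the second X chromosome is visible across autosomal genes and processes of this tissue.

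The animals were spread over 2 labelled batches, and their codes end in the letter a, in the letter b, or in both. The labels do not explain the letters. All 9 signal columns with both letters, and no others, held bead numbers that were not whole. Such columns may be means of 2 arrays, and they belong to 6 XXY and 3 XY males. Each column is called 1 array here, and its possible averaging was not modelled apart from the letter share. Batch 1 held 2 XXY and 4 XY males with letter a and 3 XXY males and 1 XY male with both letters. Batch 2 held 3 XXY and 2 XY males with both letters and 1 XXY male and 4 XY males with letter b. Arrays detected 10995 ± 504 probes in XXY males and 11272 ± 640 probes in XY males (SD, n = 9 and 11). That difference was within the spread of the arrays (exact permutation test, two-sided, p = 0.302, adjusted p = 0.689 over 4 array measures). The top decile of the raw signal (p = 0.438) and the first (p = 0.962) and second (p = 0.517) principal components of the normalized values did not separate the groups in the same test. The test left out the letters, which were unevenly spread between the groups. The top decile was 669 to 851 with letter a and 1266 to 1902 with letter b. Detected probes numbered 10309 to 11467 with letter a and 11535 to 12392 with letter b. Animals with both letters had top deciles of 721 to 1526 and 10089 to 11402 detected probes. The first component held 49.1% of the variance. XXY male replicate 5 stood at the edge of the set, with the fewest detected probes, 10089, and a first component score of -69.7, where the other 19 animals lay at -51.7 or above. Among 196 named genes of the gene lists described below, 19 had a difference that turned sign without this animal and 62 turned sign when some animal was left out, so list genes near 0 have no settled direction. Values without replicate 5 are given for Xist and for part of the other genes and lists. Of 36 list medians, 6 turned sign without this animal. The striatal markers Ppp1r1b (DARPP-32), Drd1, Drd2 and Tac1 were detected on all 20 arrays. So were 7 of the 8 thalamic and septal and 7 of the 12 cortical markers tested, so detection alone does not tell these tissues apart.

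Across 9455 features, 6 were higher in XXY males at an adjusted p below 0.05 and none was lower (0.0635% of the features tested, limma with Benjamini-Hochberg adjustment). They were Xist, the X-linked gene Eif2s3x and 4 probes without a single gene name in the annotation used. Of the 8155 autosomal genes tested, 0 passed (0%), and 95 had an unadjusted p below 0.05 (1.16%), 57 of them higher (0.699%) and 38 lower (0.466%). Over all features 123 had such a p (1.3%). All values below are normalized signals on a log2 scale. Differences are XXY males minus XY males, from the model with batch and letter terms unless a batch or letter is named. Values within a batch come from a separate fit to the XXY and XY males of that batch. Values within a letter are differences of group means without model terms. Letter b held 1 XXY male, replicate 9, so values within it rest on that animal against 4 XY males. A gene is said to have risen or fallen only where its adjusted p was below 0.05.

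Xist, the RNA that silences the X chromosome in cis, had 5.93, 8.17 and 9.31 as the lowest, median and highest value in XXY males, against 4.48, 4.63 and 4.92 in XY males. No XXY male overlapped an XY male. Detection was 9 of 9 in XXY males against 0 of 11 in XY males, so Xist was at least 5.43-fold higher in XXY males, and it rose with an adjusted p of 1.12e-07. The 9 XXY males were far from uniform for Xist: their SD was 1.14, against 0.15 in XY males, where the probe was at background. The lowest XXY value was that of replicate 5, and without this animal the modelled difference was 3.51, against 3.25 with it. The XY male without a signal column had a detection p of 0.516 for the Xist probe.

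Eif2s3x encodes the gamma subunit of the initiation factor eIF2 and is known to escape X inactivation in mice. Its values were 9.64, 10.00 and 10.16 in XXY males, against 9.01, 9.46 and 9.72 in XY males. In 8 of the 9 XXY males the level was above every XY male, and replicate 5 was the exception. The difference was 0.58 ± 0.08 (SE, adjusted p = 5.14e-05). It was of like size wherever it could be measured, 0.58 in batch 1 and 0.60 in batch 2, and 0.58, 0.52 and 0.68 within the animals of letter a, both letters and letter b.

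The promoters of Xist and Eif2s3x are shown because these are the named genes that rose, with that of Kdm6a, the escape gene next in order of p, beside them. Each stretch runs from 250 bases before to 50 bases after the RefSeq transcript start on GRCm38.p6, written 5′ to 3′ on the strand of the gene. Xist lies on the minus strand at chrX:103483184-103483483, Eif2s3x on the minus strand at chrX:94212602-94212901, and Kdm6a on the plus strand at chrX:18162325-18162624. Capitals mark matches to AANATGGC, the core of the motif of the zinc finger protein YY1, searched on both strands and chosen after the promoters had been read.
Xist: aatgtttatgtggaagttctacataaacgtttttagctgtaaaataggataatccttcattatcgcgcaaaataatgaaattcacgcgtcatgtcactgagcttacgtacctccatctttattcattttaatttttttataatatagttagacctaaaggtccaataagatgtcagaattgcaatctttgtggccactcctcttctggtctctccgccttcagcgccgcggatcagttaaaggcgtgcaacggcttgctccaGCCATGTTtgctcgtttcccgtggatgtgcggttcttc
Eif2s3x: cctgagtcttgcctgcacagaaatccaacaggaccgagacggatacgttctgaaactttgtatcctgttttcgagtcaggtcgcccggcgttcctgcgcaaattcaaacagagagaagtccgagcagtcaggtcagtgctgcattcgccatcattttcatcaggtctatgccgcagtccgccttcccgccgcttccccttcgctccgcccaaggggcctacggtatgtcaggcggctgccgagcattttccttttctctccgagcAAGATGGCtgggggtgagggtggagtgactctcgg
Kdm6a: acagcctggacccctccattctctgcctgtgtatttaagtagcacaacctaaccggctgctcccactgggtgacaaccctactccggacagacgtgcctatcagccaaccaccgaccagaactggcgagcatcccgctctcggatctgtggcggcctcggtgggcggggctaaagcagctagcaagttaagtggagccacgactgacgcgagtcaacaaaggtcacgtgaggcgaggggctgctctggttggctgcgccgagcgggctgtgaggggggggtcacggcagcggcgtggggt
Xist and Eif2s3x each held 1 match, starting 13 and 16 bases after the transcript start, and the Xist match reads on the opposite strand. Kdm6a held none in this window. Among 32851 promoter windows of the same length, 6.05% held a match, and of the 7 escape genes tested 2 did. The Eif2s3x and Kdm6a windows held 21 CpG dinucleotides each and the Xist window 15, where the median of all promoter windows was 7.

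**Figure D1:**
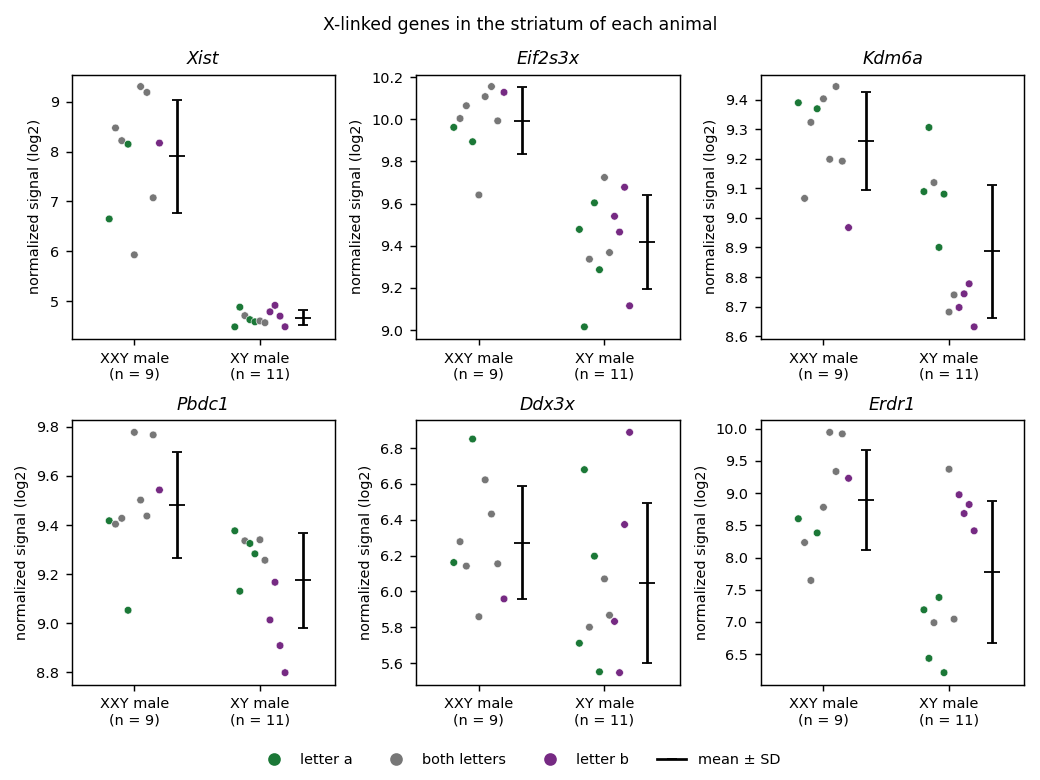
Normalized signal (log2, vertical axes) of 6 X-linked genes in each animal, with XXY males on the left and XY males on the right of each panel and bars for the mean and SD; colours give the letter of the sample code. Xist does not overlap between the groups, 8 of 9 XXY males lie above all XY males for Eif2s3x, and the groups overlap for Kdm6a, Pbdc1, Ddx3x and Erdr1.

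The list of genes known to escape X inactivation had 7 of its 16 members tested, and all 7 had a positive difference, with a median of 0.30, against -0.0011 over all features. Of these, 2 passed the adjusted threshold, Xist and Eif2s3x. Kdm6a, a demethylase of histone H3 lysine 27, had 8.97, 9.32 and 9.45 in XXY males, against 8.63, 8.78 and 9.31 in XY males. Every XXY male was above the XY mean and 5 were above every XY male, and the difference of 0.36 ± 0.10 did not pass (unadjusted p = 0.0013, adjusted p = 1.00). A second Kdm6a probe gave 0.47 ± 0.12, while a second probe of Car5b, described below, gave -0.00022 ± 0.12. Pbdc1, whose function is little known, had 9.05, 9.44 and 9.78 in XXY males, against 8.80, 9.26 and 9.38 in XY males, a difference of 0.30 ± 0.10 (adjusted p = 1.00). In 8 of 9 XXY males Pbdc1 was above all XY males, yet its difference was 0.04 in batch 1 and 0.39 in batch 2. The difference was 0.22 ± 0.20 for Ddx3x, an RNA helicase, 0.20 ± 0.23 for Bgn, the matrix proteoglycan biglycan, and 0.12 ± 0.12 for Car5b, a mitochondrial carbonic anhydrase. Bgn had 0.30 and Car5b 0.05 without XXY male replicate 5. These last 3 genes overlapped broadly between the groups.

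Erdr1, which lies in the pseudoautosomal region that X and Y share, had 7.64, 8.78 and 9.94 in XXY males, against 6.21, 7.38 and 9.37 in XY males, a difference of 1.23 ± 0.36 (unadjusted p = 0.0018, adjusted p = 1.00). The Erdr1 difference was 1.52 in batch 1 and 1.12 in batch 2. It was 1.69 within letter a, 1.18 within both letters and 0.51 within letter b. Among these males letter a occurred only in batch 1 and letter b only in batch 2. The parts of batch and letter were not tested. Outside the escape and pseudoautosomal lists, 277 X-linked genes had a median difference of 0.0077 and none differed by more than 1.5-fold. Hnrnph2, a splicing factor gene, was the farthest at 0.38 ± 0.28. Among all 285 X-linked genes, 5 had an unadjusted p below 0.05 in the higher direction (1.75%) and 1 in the lower direction (0.351%). The 5 were Xist, Eif2s3x, Kdm6a, Pbdc1 and Erdr1. The 1 lower gene, Slc10a3, had 6.14, 6.49 and 6.70 in XXY males, against 6.27, 6.75 and 7.26 in XY males. All 9 XXY males were below the XY mean of Slc10a3, with a difference of -0.25 ± 0.09 (adjusted p = 1.00).

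The autosomal genes lay close to equality. Their median difference was -0.0020, the middle 50% lay between -0.06 and 0.07, and the 5th and 95th percentiles were -0.19 and 0.19. The median SE of a single gene was 0.14, of the same order as most of these differences. For 86.3% of the 8155 autosomal genes the 95% interval of the difference stayed inside 1.5-fold in either direction, and for 98.5% inside 2-fold. The data thus bound large changes for most autosomal genes and leave small ones unresolved. Precision was better for bright genes: the interval stayed inside 1.5-fold for 81.3% of the dimmest tertile of the autosomal genes, 85.0% of the middle tertile and 92.7% of the brightest. Around the group mean, autosomal genes had a median SD of 0.35 in XXY males and 0.34 in XY males. After the model terms the root mean square residual had a median of 0.31 in XXY males and 0.25 in XY males. It carries no correction for degrees of freedom, so it cannot be set directly against these SDs. The difference between the groups was not tested.

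**Figure D2:**
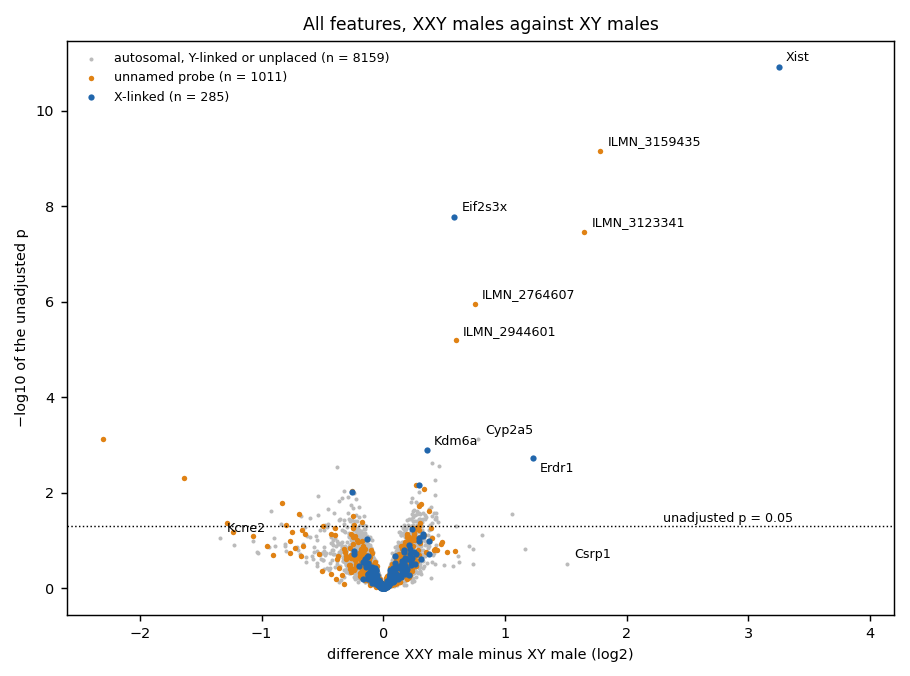
Difference between XXY and XY males (log2, horizontal axis) against minus log10 of the unadjusted p (vertical axis) for 9455 features, coloured by X-linked, unnamed or other. The 6 features that passed the adjusted threshold stand apart at the upper right, and the autosomal genes form 1 cloud around 0 with Cyp2a5 at its top.

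No autosomal gene separated the groups fully in either direction (0% of 8155), where 2 of all 9455 features did (0.0212%), Xist and 1 unnamed probe. In 14 autosomal genes all 9 XXY males were above the XY mean (0.172%), and in 10 they were all below it (0.123%). By chromosome, the share of genes at an unadjusted p below 0.05 in the higher direction ran from 0% on chromosomes 9 and 16 to 1.23% on chromosome 7, against 1.75% on the X. In the lower direction it ran from 0.137% on chromosome 11 to 2.05% on chromosome 12. Median differences of the autosomes lay between -0.014 on chromosome 8 and 0.012 on chromosome 1, against 0.011 on the X.

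Cyp2a5 had the smallest p of the autosomal genes. It encodes a cytochrome P450 enzyme best known from the liver, where it hydroxylates coumarin. Its values were 5.87, 6.35 and 6.95 in XXY males, against 4.90, 5.76 and 6.55 in XY males. All 9 XXY males were above the XY mean, 3 were above every XY male, and the probe was dim, being detected in 8 of 9 XXY males and 5 of 11 XY males. The difference was 0.77 ± 0.21 (unadjusted p = 0.00074, adjusted p = 0.880), with 0.91 in batch 1 and 0.68 in batch 2.

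The genes that followed Cyp2a5 among those with positive differences belong to no single process, and each had an adjusted p of 1.00. Klc3, a kinesin light chain that links cargo to the microtubule motor, had 6.77, 7.14 and 7.54 in XXY males, against 6.15, 6.65 and 7.11 in XY males. For Klc3 every XXY male was above the XY mean and the difference was 0.40 ± 0.12. Nupr1, a small nuclear protein induced by stress, had 7.62, 8.06 and 8.73 in XXY males, against 7.22, 7.82 and 8.03 in XY males, with 5 XXY males above all XY males. Cd34, a sialomucin of vascular endothelium and blood progenitors, had a difference of 0.42 ± 0.14. Rab40b, a small GTPase, had 0.46 ± 0.14, but was detected on 5 arrays of each group. The difference was 0.42 ± 0.16 for Chpf, a chondroitin-polymerising factor, and 0.39 ± 0.16 for Upf1, the helicase of nonsense-mediated decay. Both were far smaller in batch 2, at -0.04 for Chpf and 0.04 for Upf1. Rpap1 (0.29), Vipas39 (0.29), Twf1 (0.27), Bcar1 (0.24) and Etfdh (0.22) made up the rest of the 12.

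Among the 12 genes with negative differences of smallest p, Phf23, a PHD finger protein, had 5.40, 5.70 and 6.72 in XXY males, against 5.80, 5.95 and 6.86 in XY males. In 6 of 9 XXY males Phf23 was below every XY male, and the difference was -0.38 ± 0.12 (unadjusted p = 0.0028, adjusted p = 1.00). Cdyl, a chromodomain co-repressor, had 5.38, 6.05 and 6.42 in XXY males, against 6.14, 6.29 and 6.79 in XY males, a difference of -0.33 ± 0.12, or -0.24 without XXY male replicate 5. Ctnnal1, a relative of alpha-catenin, had -0.36 ± 0.14, and Gstt3, a glutathione transferase, -0.54 ± 0.20. Myd88, the adaptor of Toll-like receptors, had 7.63, 8.37 and 8.68 in XXY males, against 8.32, 8.48 and 8.89 in XY males, a difference of -0.27 ± 0.11, or -0.18 without XXY male replicate 5. For Apobec1, 5730409E04Rik, Apba3 and Ift80 all 9 XXY males were below the XY mean, with differences of -0.29, -0.34, -0.20 and -0.25. The list ended with Atp9b (-0.46), Cnot11 (-0.24) and the uracil-DNA glycosylase Ung (-0.23). None of these genes passed the adjusted threshold, the adjusted p of each being 1.00.

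**Figure D3:**
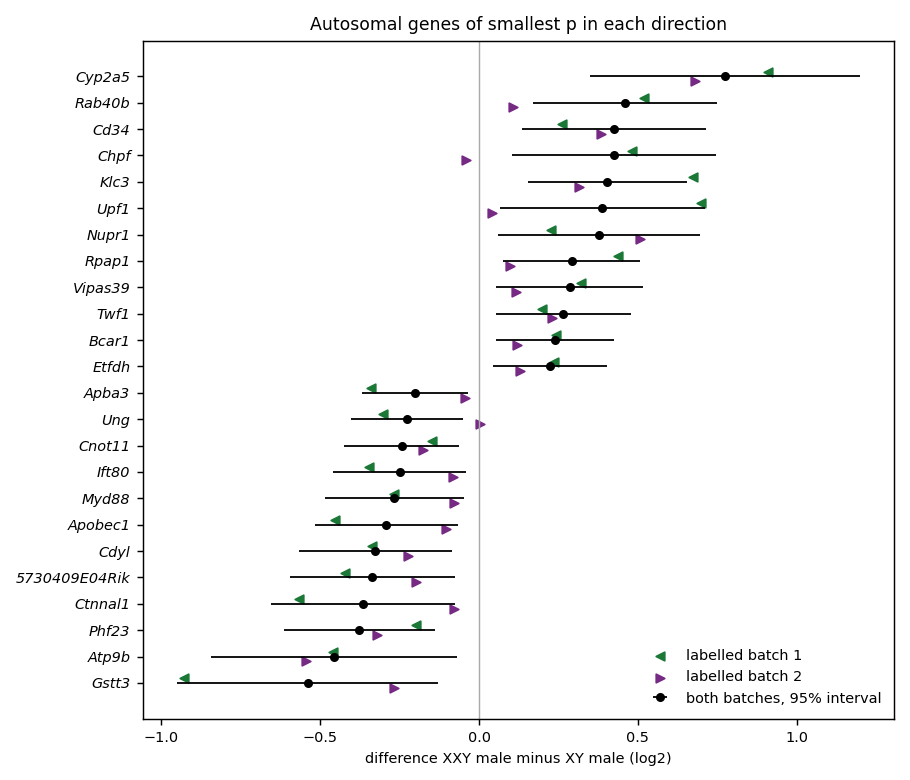
Difference between XXY and XY males (log2, horizontal axis) for the 12 autosomal genes with positive and the 12 with negative difference of smallest p, with the 95% interval over both batches (black) and the values within labelled batch 1 and batch 2 (triangles). Both batches lie on the same side of 0 for all but Chpf and Ung, and batch 2 is often nearer 0.

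By size rather than p, 36 autosomal genes differed by more than 1.5-fold, 11 with a positive and 25 with a negative difference, and 7 of the 36 had an unadjusted p below 0.05. The 8 past 2-fold were named after their values were seen. Csrp1, a LIM domain protein of the cytoskeleton, was farthest at 1.51 ± 1.44, and its values were widely spread in both groups, 5.12, 11.57 and 12.56 in XXY males, against 4.94, 6.25 and 12.74 in XY males. Csrp1 thus split the animals inside each group. Zfp365 (1.16 ± 0.79) and Fam171a1 (1.06 ± 0.46) were the other positive ones. Kcne2, Wfdc2, Sostdc1, Ecrg4 and Prkcd had negative differences, from -1.34 for Kcne2 to -1.03 for Prkcd. Kcne2 and Sostdc1 are markers on the choroid plexus list and Prkcd is on the thalamic list, both described below.

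Genes of the machinery that works with Xist had differences on both sides of 0. Of 28 proteins known to bind Xist or to silence chromatin with it, 18 were tested, 9 had a positive difference and none had an unadjusted p below 0.05, with a median of -0.00087. Dnmt1, the maintenance DNA methyltransferase, had 7.23, 7.42 and 7.70 in XXY males, against 6.67, 7.22 and 7.73 in XY males. All 9 XXY males were above the XY mean of Dnmt1, and the difference was 0.25 ± 0.13 (adjusted p = 1.00). Eed, a subunit of the Polycomb complex that methylates lysine 27 of histone H3, had -0.19 ± 0.17. The silencing cofactor Spen had -0.10 ± 0.25 and the RNA-binding protein Hnrnpk 0.02 ± 0.18. Eed had -0.29, Spen 0.018 and Hnrnpk 0.12 without XXY male replicate 5. For 94.4% of the list the interval stayed inside 1.5-fold.

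Partners of Eif2s3x had differences near 0. Of 17 tested genes of the eIF2 complex, its exchange factor, its kinases and the stress response downstream, 7 had a positive difference, 1 passed (Eif2s3x itself) and the median was -0.015. Eif2s2, the beta subunit of the same trimer, had 9.68, 9.91 and 10.24 in XXY males, against 9.63, 10.00 and 10.30 in XY males. Its difference was -0.06 ± 0.10 (adjusted p = 1.00), where Eif2s3x had 0.58. The guanine nucleotide exchange subunits Eif2b1, Eif2b2, Eif2b4 and Eif2b5 lay between -0.09 and 0.01, and the GTPase-activating factor Eif5 had -0.06 ± 0.06. Atf4, the transcription factor translated under eIF2 stress, had -0.23 ± 0.18 on a probe detected in 2 XXY and 4 XY males. The kinases Eif2ak1, Eif2ak2 and Eif2ak3 had 0.10, -0.07 and 0.14, the assembly factor Cdc123 0.22, the initiation factor Eif2d -0.05 and the phosphatase subunit Ppp1r15a -0.02. XXY male replicate 5 moved most of these values: without it Eif2ak1 had 0.28, Eif2ak2 0.12, Eif2ak3 0.025, Cdc123 0.12, Eif2d -0.18, Eif2b2 -0.12, Eif5 -0.024 and Atf4 -0.33, while Eif2s2 had -0.07. The Atf4 targets Ddit3, Chac1 and Asns had -0.02, 0.06 and 0.03. Other translation factors had a median of 0.0075, with 16 of 31 positive and none at an unadjusted p below 0.05.

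Enzymes that write and erase methylation on lysines 27 and 4 of histone H3, the marks that Kdm6a works among, had 14 of 18 positive differences and a median of 0.11, and Kdm6a alone had an unadjusted p below 0.05. Ezh1, a Polycomb methyltransferase, had 0.24 ± 0.20, Kdm6b, the autosomal relative of Kdm6a, 0.22 ± 0.26, and Ash2l, a subunit of the lysine 4 methyltransferases, 0.12 ± 0.08. The list's median was 0.16 in batch 1 and 0.018 in batch 2, and 0.21, 0.076 and -0.058 within letter a, both letters and letter b.

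Projection neuron genes had mostly positive and small differences. In bulk tissue, more or fewer cells of a type and more or less RNA per cell cannot be told apart. On the list of projection neuron identity and cAMP signalling, 20 of the 21 genes tested had a positive difference, with a median of 0.10, and none had an unadjusted p below 0.05. Ppp1r1b, which turns dopamine signals into phosphatase inhibition, had 12.92, 14.25 and 14.68 in XXY males, against 13.60, 14.02 and 14.71 in XY males, a difference of 0.07 ± 0.20. Rarb, a retinoic acid receptor of striatal neurons, had 0.24 ± 0.18, the transcription factor Bcl11b 0.16 ± 0.40 and Foxp1 0.14 ± 0.35. Without XXY male replicate 5, Ppp1r1b had 0.22, Bcl11b 0.48 and Foxp1 0.33. The same 3 genes had -0.0037, -0.034 and -0.016 without XXY male replicate 4. The 21 genes were measured in the same animals and are not separate evidence. The mean centred level of the list ran from -0.68 to 0.51 among XXY males and from -0.57 to 0.51 among XY males. The list median was 0.27 within letter a and 0.23 within both letters but -0.26 within letter b, and 0.22 without XXY male replicate 5.

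The tested genes of both output pathways had mostly positive differences. Of 8 direct pathway genes 6 were positive, with a median of 0.10. Drd1 had 10.65, 10.98 and 11.41 in XXY males, against 10.23, 10.76 and 11.44 in XY males, a difference of 0.22 ± 0.19, and the peptide precursors Tac1 and Pdyn had 0.13 ± 0.14 and 0.05 ± 0.18. Only 5 of the 11 indirect pathway genes were tested, and 4 of these were positive, with a median of 0.21. The markers Adora2a and Penk were among the 6 not tested. Drd2 had 9.10, 10.34 and 10.62 in XXY males, against 8.99, 10.17 and 11.00 in XY males, a difference of 0.12 ± 0.25, or 0.25 without XXY male replicate 5. The groups overlapped over nearly their whole range for both dopamine receptors. The orphan receptor Gpr6 had 0.21 ± 0.23. None of these 13 genes had an unadjusted p below 0.05, and within letter b the medians of both lists were negative, at -0.40 for the direct and -0.32 for the indirect pathway.

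Interneuron markers had differences on both sides of 0. Cholinergic interneuron genes had 6 of 7 positive differences and a median of 0.09, led by Chat, the acetylcholine-synthesising enzyme, at 0.24 ± 0.23. The list median was 0.14 within letter a, 0.49 within both letters and -0.73 within letter b. Among the GABAergic interneuron markers 5 of 8 were positive. Pvalb, the calcium buffer of fast-spiking cells, had 12.04, 13.35 and 13.91 in XXY males, against 12.73, 13.52 and 14.40 in XY males, a difference of -0.42 ± 0.29. Sst and Npy, which share a class of interneurons, had 0.12 ± 0.09 and 0.18 ± 0.13. Genes of dopamine synthesis and breakdown had a median of -0.020, with 3 of 9 positive and Maob, a monoamine oxidase on the X, at -0.24 ± 0.18. Neuropeptide genes had a median of 0.10 with 14 of 19 positive, and ranged from Cck at -0.42 ± 0.36 to Nts at 0.42 ± 0.41, and their median within letter b was -0.48. Without XXY male replicate 5 Nts had 0.15, and without XXY male replicate 3 Cck had -0.21. No gene of these 4 lists had an unadjusted p below 0.05.

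Synaptic genes had small list medians that differed between the labelled batches. Glutamate receptors and their scaffolds had a median of 0.06 (14 of 20 positive), GABA receptors and synthesis 0.011 (5 of 9), synaptic vesicle genes 0.0050 (15 of 29) and voltage-gated channels 0.019 (19 of 32). In that order the medians were 0.34, 0.14, 0.21 and 0.21 in batch 1 and -0.049, -0.10, -0.046 and -0.029 in batch 2. They were 0.13, 0.13, 0.11 and 0.089 without XXY male replicate 5. On these 4 lists none of the genes tested had an unadjusted p below 0.05. The AMPA receptor subunits Gria1 and Gria2 had 0.11 ± 0.22 (0.25 without XXY male replicate 5) and 0.15 ± 0.17, and Gad1, which makes GABA, had 0.15 ± 0.12. The vesicular glutamate transporters, which mark inputs and neurons from outside the striatum, had the most negative values of the vesicle list, -0.51 ± 0.43 for Slc17a6 and -0.55 ± 0.56 for Slc17a7. Without XXY male replicate 3 they had -0.11 and -0.23.

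Microglial markers held 2 of the 4 autosomal list genes with an unadjusted p below 0.05. In all, 639 autosomal genes stood on at least 1 list, and 4 of them had such a p (0.626%), below the 1.16% of all autosomal genes. The 2 higher ones encode chains of complement C1q, which tags synapses and debris for removal. C1qb had 10.05, 10.87 and 11.56 in XXY males, against 9.95, 10.18 and 11.16 in XY males, and C1qc had 9.26, 9.74 and 10.59 in XXY males, against 8.83, 9.47 and 10.09 in XY males. For each, 7 of 9 XXY males were above the XY mean, with differences of 0.43 ± 0.20 and 0.39 ± 0.19 (unadjusted p = 0.036 and 0.047, adjusted p = 1.00). Both batches gave positive values, 0.44 and 0.58 for C1qb and 0.40 and 0.60 for C1qc. C1qa, which encodes the remaining chain, had 0.19 ± 0.15 (0.080 without XXY male replicate 8), and the microglial receptor P2ry12 -0.05 ± 0.16. Without XXY male replicate 8, C1qb had 0.32 and C1qc 0.28. The whole list of 13 had a median of 0.07, with 10 positive. The list median was -0.024 in batch 1 and 0.11 in batch 2, and -0.031, 0.046 and 0.0028 within letter a, both letters and letter b.

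Oligodendrocyte markers had 10 of 12 negative differences and a median of -0.17, and none had an unadjusted p below 0.05. The myelin genes Mog and Mobp had -0.22 ± 0.20 and -0.21 ± 0.21, while Mbp, the gene of myelin basic protein, had 0.0053 ± 0.08. The list median was -0.49 within both letters and 0.53 within letter b, and -0.04 without XXY male replicate 5. Oligodendrocyte precursor and astrocyte markers had medians of -0.00077 and 0.012, or 0.068 and 0.12 without XXY male replicate 5. Gfap, the astrocyte filament, had -0.23 ± 0.17, with -0.57 in batch 1 and 0.17 in batch 2.

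**Figure D4:**
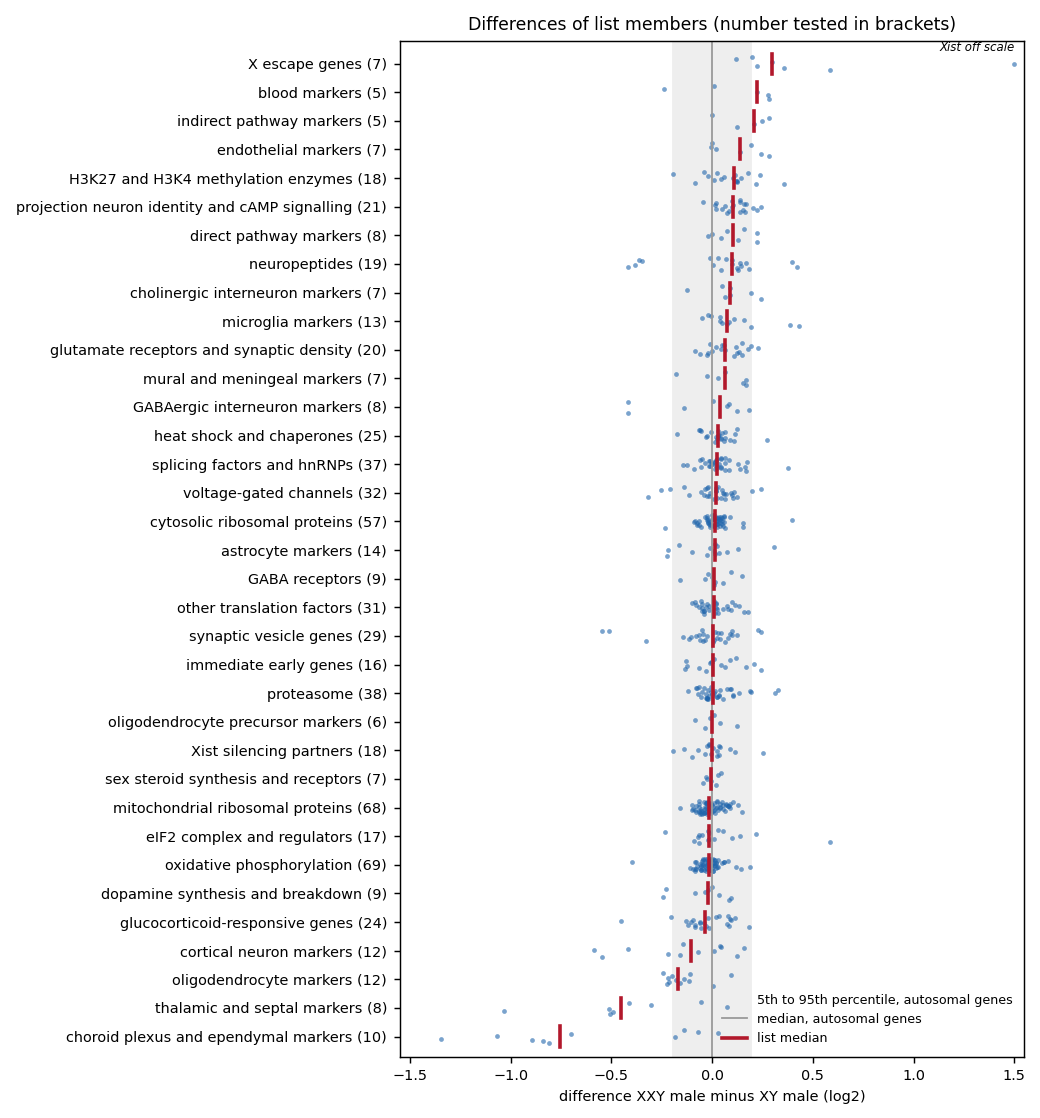
Differences between XXY and XY males (log2, horizontal axis) of the tested members of each gene list (blue points, number in brackets) with the list median (red) and the 5th to 95th percentile of all autosomal genes (grey band); Xist lies off the scale. Most medians sit close to 0, the X escape list lies at 0.30, and the choroid plexus and thalamic lists are lowest at -0.76 and -0.45. The pseudoautosomal list, with 1 gene tested, is not drawn.

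Vessel and blood markers had mostly positive differences, and none had an unadjusted p below 0.05. Endothelial genes had a median of 0.14 (5 of 7 positive), among them Pecam1, an adhesion molecule, at 0.28 ± 0.21, or in XXY males 5.08, 6.41 and 6.69, against 5.00, 6.17 and 6.55 in XY males. The list median was 0.41 in batch 1 and -0.08 in batch 2. Mural and meningeal genes had 0.06 (5 of 7 positive), or -0.030 without XXY male replicate 5. Blood markers had 0.22 (4 of 5 positive), with the globin Hba-a1 at 0.28 ± 0.16, and the median was 0.019 without XXY male replicate 5.

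The most negative list medians were those of tissue that borders the striatum. Choroid plexus and ependymal markers had 9 of 10 negative differences and a median of -0.76, and 6 of the 25 autosomal genes that were lower by more than 1.5-fold stood on this list. Ttr, the transthyretin of choroid plexus, had 11.66, 12.17 and 14.68 in XXY males, against 11.68, 14.46 and 14.77 in XY males. Kcne2, a potassium channel subunit of the same epithelium, had 4.89, 6.28 and 9.10 in XXY males, against 4.67, 8.87 and 10.13 in XY males. The ranges overlapped widely: each group held animals with high and animals with low values. The mean centred level of the list was above 0 in 3 of 9 XXY males and in 7 of 11 XY males. No member passed: Kcne2 had -1.34 ± 0.76 (unadjusted p = 0.087), Ttr -0.81 ± 0.51 and Otx2, a homeobox factor of the choroid plexus, -0.84 ± 0.40 (unadjusted p = 0.046, adjusted p = 1.00). The summed signal of the list ran from 6504 to 30701 with a median of 7281 in XXY males, and from 5598 to 34408 with a median of 26954 in XY males. The median was -1.22 within letter a, -0.085 within both letters and -0.066 within letter b.

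Thalamic and septal markers had 7 of 8 negative differences and a median of -0.45. Prkcd, a kinase of thalamic relay neurons, had 7.17, 8.09 and 12.17 in XXY males, against 7.11, 11.05 and 12.00 in XY males, a difference of -1.03 ± 0.75 (adjusted p = 1.00). Tcf7l2, a transcription factor of the thalamus, had -0.51 ± 0.37. The list level was above 0 in 3 of 9 XXY males and 8 of 11 XY males. In XXY males the same 3 animals were above 0 for choroid plexus and for thalamic markers, and in XY males 5 animals were. The list median was 0.03 within letter a, -1.26 within both letters and 0.45 within letter b. Cortical neuron markers had 7 of 12 negative and a median of -0.11, led by Nrn1, a neurite growth factor, at -0.59 ± 0.46, or -0.23 without XXY male replicate 3. The part that dissection of neighbouring tissue plays in the neuronal and glial values was not tested.

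**Figure D5:**
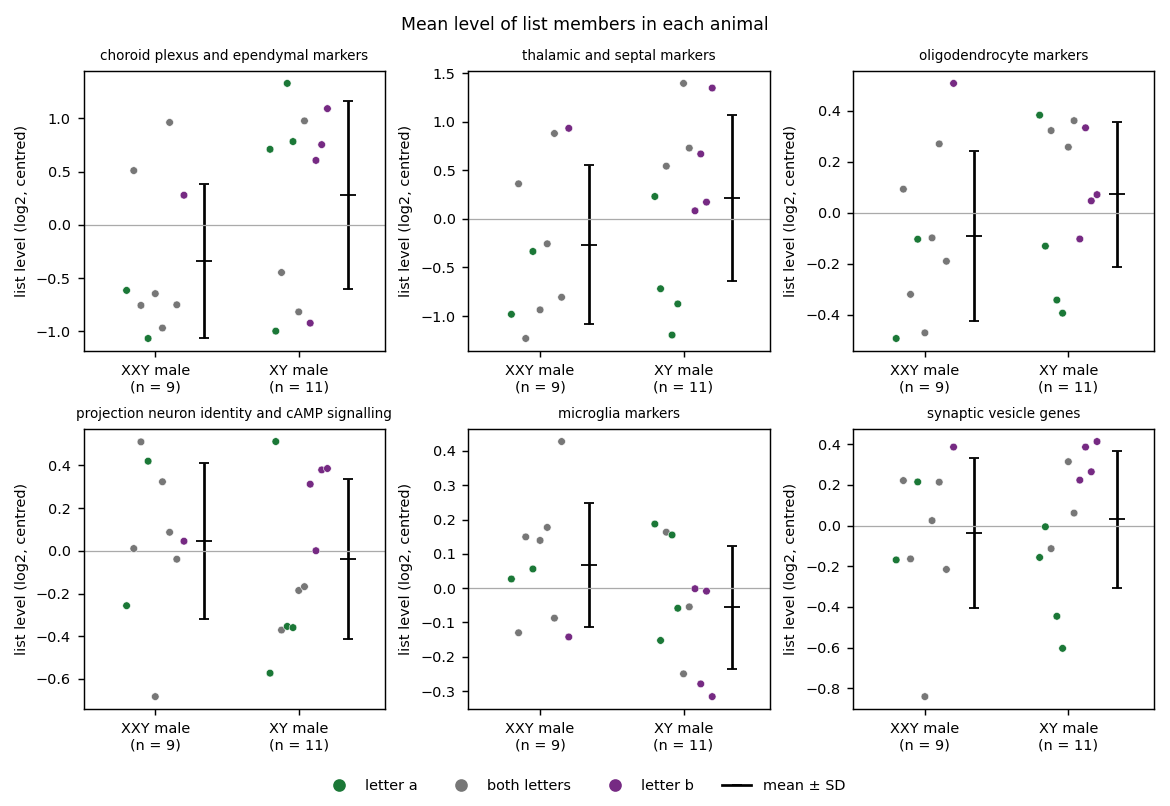
Mean centred level (log2, vertical axes) of the members of 6 gene lists in each animal, XXY males on the left and XY males on the right, with bars for the mean and SD and colours for the letter of the sample code. Choroid plexus levels fall into high and low animals in both groups, with 3 of 9 XXY and 7 of 11 XY males above 0, and the levels of all 6 lists overlap between the groups.

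Housekeeping processes had list medians near 0. Oxidative phosphorylation genes had a median of -0.017 (22 of 69 positive), cytosolic ribosomal proteins 0.013 (36 of 57), mitochondrial ribosomal proteins -0.015 (27 of 68) and the proteasome 0.0023 (20 of 38). Heat shock proteins and chaperones had 0.03 (18 of 25) and splicing factors 0.02 (26 of 37). Across these 6 lists 1 gene had an unadjusted p below 0.05, the mitochondrial ribosomal protein gene Mrpl49. It had 10.84, 11.13 and 11.41 in XXY males, against 10.96, 11.23 and 11.69 in XY males, a difference of -0.16 ± 0.07 (unadjusted p = 0.030, adjusted p = 1.00). Beside 86.3% of all autosomal genes, the interval stayed inside 1.5-fold for 100% of the mitochondrial ribosomal genes, 94.7% of the cytosolic ribosomal genes, 88.4% of the oxidative phosphorylation genes and 89.5% of the proteasome genes. The median of the mitochondrial ribosomal genes was -0.18 in batch 1 and 0.032 in batch 2, and that of oxidative phosphorylation -0.13 and -0.0046.

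Genes that respond to hormones and to activity had list medians near 0. Glucocorticoid-responsive genes had a median of -0.03 with 9 of 24 positive. Fkbp5, a chaperone of the receptor, had 5.29, 7.21 and 8.05 in XXY males, against 5.79, 7.40 and 7.99 in XY males, a difference of -0.02 ± 0.32 (0.21 without XXY male replicate 5), and Sgk1, a kinase that the hormone induces, had -0.06 ± 0.19. Of 24 genes of sex steroid synthesis and response, 7 were tested, with a median of -0.0049 and Hsd17b10 and Pgrmc1 at -0.04 ± 0.19 and 0.05 ± 0.21. Immediate early genes had a median of 0.0035 with 8 of 16 positive, and Fos had -0.03 ± 0.27. Without XXY male replicate 5, Hsd17b10 had -0.18, Pgrmc1 -0.068 and Fos -0.17. None of these genes had an unadjusted p below 0.05.

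Of the 4 unnamed probes that rose, ILMN_3159435 had 6.60, 7.12 and 7.62 in XXY males, against 4.65, 5.34 and 6.73 in XY males, a difference of 1.78 ± 0.21 (adjusted p = 3.23e-06). The difference of ILMN_3159435 was 2.21 within letter a, 2.03 within both letters and 0.87 within letter b. It was detected in all 9 XXY males and 4 of 11 XY males. ILMN_3123341 had 5.55, 6.62 and 7.65 in XXY males, against 4.61, 4.79 and 5.43 in XY males, with no overlap. It was detected in 6 of 9 XXY males and in no XY male, which makes it at least 2.12-fold higher (adjusted p = 8.07e-05). ILMN_2764607 had a difference of 0.75 ± 0.13 and ILMN_2944601 of 0.60 ± 0.11, with adjusted p of 0.0021 and 0.0099, and the lowest XXY males of both overlapped the highest XY males. Among the 1011 unnamed probes, 11 had an unadjusted p below 0.05 in each direction (1.09% each). ILMN_2725322 and ILMN_2685995, chosen after their values were seen, had differences of -2.30 and -1.64, but the medians were 4.65 and 4.58 in XXY males, against 4.74 and 4.75 in XY males. Both probes were detected in 5 of 11 XY males and in no XXY male, and the highest XY values were 12.96 and 11.40.

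The difference between XXY and XY males was also compared between the labelled batches. An interaction term passed for 0 of 9455 features (0%, limma), and 97 had an unadjusted p below 0.05 (1.03%), or 317 without the letter term. Among them was ILMN_3123341, at 1.13 in batch 1 and 2.22 in batch 2 (unadjusted p = 0.023). Xist had 2.78 and 3.74 (unadjusted p = 0.177). Of the autosomal genes 79 had an unadjusted p below 0.05 (0.969%).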

How the data were processed

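Total RNA of the striatum was measured on Illumina mouse bead arrays. Per the file headers, the authors deposited non-normalized bead signals, which are linear intensity values, with a detection p-value for each probe and array. A second table that the authors deposited holds log2 values, whose processing is not given in the sources used here beyond limma, which the submitters' processing notes name. That table held 12128 probes and served as an alternative. Its XX male columns, which correlated at 0.062 to 0.073 with their own arrays, were left out.

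All 37 arrays were background corrected and quantile normalized together with neqc (offset 16) in limma 3.58.1 under R 4.3.3, using the detection p-values. A probe was kept where its detection p was below 0.01 on at least 8 of the 37 arrays, so that some kept probes were detected in few XXY or XY males. Of 25697 probes 12339 were kept, giving 9455 features with the brightest probe for each gene. In the annotation used, 11458 probes had 1 gene symbol, of which 11454 matched RefSeq (GRCm38.p6) with 0 symbols changed. The other 14239 had no symbol there or more than 1, and they count as unnamed. Without the detection filter 22755 features held 8226 autosomal genes, as many as the deposited log2 values did. The annotation thus limits which genes could be named or tested. The limma model held the groups, the labelled batch and the share of letter b (0, 0.5 or 1), with 34.54 degrees of freedom and Benjamini-Hochberg adjustment over all features. The number of arrays limits the precision. The test was also run on data simulated from this fit with independent noise for each gene, so the correlation between genes was not simulated. Bounds for genes undetected in XY males use the floor of each array, the lowest signal among detected probes. Promoters came from RefSeq on GRCm38.p6.

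Named genes were every feature that passed, the 12 autosomal genes of smallest p in each direction, all tested escape, pseudoautosomal and eIF2 genes, and from each list the 3 of smallest p, the first 3 tested and the lowest and highest. The members and lists were chosen with earlier results of these data known. Alternatives covered the model terms, the samples, background, scaling, filter, probe choice, array weights, the deposited log2 table, a replicate block and leaving out each animal.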

Additional observations from a re-analysis of the deposited data

Results flagged for a closer look

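Within the 9 XXY males, 19 of 232 named features had 1 animal whose gap to the next passed Dixon's 95% critical value for the share of the whole range (8.19%), where chance gives about 1 in 20 groups. XXY male replicate 5, the array with the fewest detected probes, was the lowest in 16 of the 19. Among translation and chromatin genes it had Eif2ak1 at 6.987 (next 8.135), Eif2ak2 at 5.995 (next 7.495), Eef2 at 8.831 (next 10.64) and Cdyl at 5.378 (next 5.915), in log2 signal. Among neuronal genes it had Ppp1r1b at 12.92 (next 13.79), Bcl11b at 8.931 (next 10.79), Gria1 at 9.005 (next 9.969), Gria3 at 5.305 (next 6.349), Grm7 at 5.879 (next 6.518), Syt1 at 9.853 (next 11.02) and Syt11 at 11.47 (next 13.14). Among glial, vascular and metal-binding genes it had Olig1 at 11.14 (next 12.17), Aqp4 at 7.456 (next 8.627), Aldh1l1 at 6.943 (next 7.758), Pecam1 at 5.077 (next 6.038) and Mt1 at 14.33 (next 14.68). The other 3 lay in other animals. Bcar1 was low in XXY male replicate 1, at 7.331 (next 7.888), and Slc17a6, a vesicular glutamate transporter, was low in XXY male replicate 3, at 7.972 (next 10.8). Fezf2, a cortical transcription factor, was high in XXY male replicate 9, at 6.928 (next 5.763). The cause of these gaps was not tested.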

How the results depend on the processing

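The same 6 features passed under 9 of the alternatives that kept all 20 animals and in each of the 20 fits that left out 1 animal. Fewer passed in smaller sets: 1 in labelled batch 1, 2 in labelled batch 2 (Xist and the autosomal gene Fgf17), 0 in animals with both letters, 0 in letter a, 1 without the animals of both letters, and 3 among genes detected in all 20 animals, where fewer animals or features were tested. With XXY and XY males alone 5 passed. With the authors' deposited log2 values, where XY male replicate 3 was added, 4 passed. In these fits, in that order, ILMN_2944601 had an adjusted p of 0.272 and 0.0839. Autosomal genes at an unadjusted p below 0.05 numbered 95, against 175 in animals with both letters, 46 among genes detected in all 20, and 882 with array weights. Leaving out 1 animal gave 54 (without XY male replicate 1) to 170 (without XXY male replicate 9). No autosomal gene passed in these fits apart from Fgf17. With the replicate block 0 features passed and 186 autosomal genes had such a p, with Xist at 3.08 (adjusted p = 0.0682). For replicate numbers shared by the groups, 8 pairs correlated between -0.521 and 0.689, 6 of them above 0.1. In these pairs 0 XXY males correlated best with their own number. The correlations were not adjusted for batch or letter, so they cannot settle whether the numbers pair the animals. Replicate 6 was in batch 2 for XXY and in batch 1 for XY males. Among the features that passed, the 24 autosomal genes of smallest p and the escape and pseudoautosomal genes, the sign turned within labelled batch 2 for Chpf (-0.040), Ung (0.0014) and Car5b (-0.068), within letter a for Pbdc1 (-0.043), and with array weights for Car5b (-0.049). The cause was not tested. Among the 196 other named genes 0 passed in any of these fits, 62 turned sign when some animal was left out and 132 under at least 1 other alternative. Of 36 list medians, 18 turned sign when some animal was left out and 28 under at least 1 other alternative. The escape, pseudoautosomal, histone methylation, projection neuron, splicing and choroid plexus lists kept theirs in all of these fits. Letter b, with its 1 XXY male, was not among them. Within letter b the projection neuron median was -0.26, the histone methylation median -0.058 and the splicing median -0.021. The detection limit bounds Xist and other dim probes.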
